A study of Mus musculus with 4 samples.

Results

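The peaks described here are 2485 H3K4me3 peaks of the mouse hippocampus that lie in intergenic sequence, far from annotated genes. They were taken from the list of 27063 replicated peaks by position alone. A peak was kept if it lay over 10 kb from every transcription start site (TSS) of any gene type in GENCODE M21 and if its summit lay outside every annotated gene body. They make up 9.18% of that list. No measured value of the mark entered the choice, and these peaks are called intergenic distal peaks below. Chromatin immunoprecipitation with an antibody to H3K4me3 was sequenced from frozen hippocampal tissue, named layer of hippocampus in the labels. Each of 2 pools, pool D and pool C, was combined from 7 biosamples. All were of the strain B6CASTF1/J, male, adult and 2 months old. Each pool gave 2 technical libraries, there was no second condition, and peaks were deposited per pool and for both pools, so values are compared between peak classes and between pools.

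H3K4me3 is the trimethylated form of lysine 4 of histone H3. It is laid down mainly by the SET1 and MLL complexes and marks the nucleosomes around active and poised start sites, most of all at CpG islands. Away from promoters the mark is usually weak, because active enhancers carry mostly the monomethylated form. Start sites missing from an annotation, genes read by RNA polymerase III and strongly active enhancers can all carry it.

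Sequences of 300 bp centred on the summit show what lies under the strongest and the most CpG-dense of these peaks. They are read from the plus strand of mm10 (GRCm38), and the deposited peaks use the same build. The tissue came from a hybrid of 2 strains, and the letters are those of the reference strain. In the first 5 the CpG dinucleotides are in capitals. The 3 peaks with the highest signal value are named by their nearest coding gene: Pum2 at chr12:8640787-8641086, Cfap126 at chr1:171102067-171102366 and Cggbp1 at chr16:64873645-64873944. The 2 windows with most CpG dinucleotides, 39 each, lie nearest to Dmbx1 at chr4:115963001-115963300 and to Fgfr3 at chr5:33695400-33695699. The last 2 windows show in capitals the match to the CTCF core motif in the second strongest peak whose 300 bp window holds one, nearest to Nat1 at chr8:67431342-67431641, and the match to the nuclear factor I palindrome in the strongest peak whose window holds that, nearest to Sox17 at chr1:4571641-4571940.
Pum2 window: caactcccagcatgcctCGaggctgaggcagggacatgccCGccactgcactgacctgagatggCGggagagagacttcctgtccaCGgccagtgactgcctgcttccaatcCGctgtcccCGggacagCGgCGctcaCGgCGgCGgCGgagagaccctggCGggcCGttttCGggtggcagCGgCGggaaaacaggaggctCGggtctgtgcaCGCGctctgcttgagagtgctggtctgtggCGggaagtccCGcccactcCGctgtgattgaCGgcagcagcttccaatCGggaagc
Cfap126 window: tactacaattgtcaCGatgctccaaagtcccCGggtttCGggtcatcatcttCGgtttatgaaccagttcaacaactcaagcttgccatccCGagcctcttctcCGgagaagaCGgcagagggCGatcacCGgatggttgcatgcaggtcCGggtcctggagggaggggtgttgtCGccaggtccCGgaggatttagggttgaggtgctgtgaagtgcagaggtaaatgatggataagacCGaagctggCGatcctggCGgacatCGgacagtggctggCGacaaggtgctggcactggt
Cggbp1 window: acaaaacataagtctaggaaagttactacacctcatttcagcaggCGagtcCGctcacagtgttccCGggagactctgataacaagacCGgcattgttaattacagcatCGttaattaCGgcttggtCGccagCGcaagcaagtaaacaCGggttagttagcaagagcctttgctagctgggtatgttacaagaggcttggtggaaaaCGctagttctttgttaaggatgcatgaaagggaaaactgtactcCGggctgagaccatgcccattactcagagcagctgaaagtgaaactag
Dmbx1 window: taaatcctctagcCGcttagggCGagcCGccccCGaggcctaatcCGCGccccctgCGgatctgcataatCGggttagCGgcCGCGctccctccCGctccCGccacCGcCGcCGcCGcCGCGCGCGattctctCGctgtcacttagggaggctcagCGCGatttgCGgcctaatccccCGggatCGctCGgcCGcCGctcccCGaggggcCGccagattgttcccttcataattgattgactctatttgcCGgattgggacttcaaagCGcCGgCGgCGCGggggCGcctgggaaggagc
Fgfr3 window: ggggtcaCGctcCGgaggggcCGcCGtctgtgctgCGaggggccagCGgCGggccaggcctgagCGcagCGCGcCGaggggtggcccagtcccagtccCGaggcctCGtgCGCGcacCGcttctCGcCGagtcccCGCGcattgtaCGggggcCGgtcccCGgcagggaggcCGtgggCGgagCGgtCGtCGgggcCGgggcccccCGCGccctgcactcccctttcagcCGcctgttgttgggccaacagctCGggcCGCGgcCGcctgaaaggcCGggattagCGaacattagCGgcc
Nat1 window: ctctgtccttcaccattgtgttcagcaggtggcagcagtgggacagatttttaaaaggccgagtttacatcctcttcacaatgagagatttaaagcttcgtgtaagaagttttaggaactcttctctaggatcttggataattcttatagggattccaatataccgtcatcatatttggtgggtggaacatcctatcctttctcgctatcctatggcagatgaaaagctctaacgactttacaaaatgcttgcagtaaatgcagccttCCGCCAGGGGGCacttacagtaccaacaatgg
Sox17 window: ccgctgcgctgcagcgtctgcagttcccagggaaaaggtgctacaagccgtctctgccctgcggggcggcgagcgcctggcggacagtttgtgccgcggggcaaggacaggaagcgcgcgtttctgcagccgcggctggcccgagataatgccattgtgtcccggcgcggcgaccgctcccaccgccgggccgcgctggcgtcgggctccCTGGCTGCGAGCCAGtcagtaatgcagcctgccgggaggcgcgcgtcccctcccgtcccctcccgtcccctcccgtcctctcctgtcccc

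The peak nearest to Cfap126 also covers 4 transfer RNA (tRNA) genes annotated by RefSeq on GRCm38. Sequences of 3 of them are shown because tRNA genes lie under 10 of the 50 strongest intergenic distal peaks. Each is given on its own strand, with the anticodon in capitals: n-TLcag9 for leucine at chr1:171101838-171101920 on the minus strand, and, on the plus strand, n-TDgtc5 for aspartate at chr1:171102371-171102442 and n-TGtcc3 for glycine at chr1:171102756-171102827.
n-TLcag9: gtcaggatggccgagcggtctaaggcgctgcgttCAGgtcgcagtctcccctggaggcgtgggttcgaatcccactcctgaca
n-TDgtc5: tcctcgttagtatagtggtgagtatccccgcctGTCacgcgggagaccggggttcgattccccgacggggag
n-TGtcc3: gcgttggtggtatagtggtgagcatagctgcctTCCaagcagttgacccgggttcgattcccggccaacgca

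Intergenic distal peaks were narrow and weak beside promoter peaks, and somewhat stronger than other peaks away from promoters. Their median width was 569 bp, with quartiles at 389 and 812 bp. The median was 544 bp for the 2055 intragenic distal peaks, which lie as far from every TSS but inside a gene, 587 bp for the 4878 peaks 1 to 10 kb from a TSS, and 1872 bp for the 15515 peaks within 1 kb of a protein-coding TSS. Another 2130 peaks lay within 1 kb of a TSS of other gene types. Of the intergenic distal peaks, 363 (14.6%) were wider than 1 kb, against 56.5% of all replicated peaks. The signal value, the enrichment that the authors' peak caller gave each peak, had a median of 4.73 in intergenic distal peaks. It was 4.05 in intragenic distal peaks, 4.20 in peaks 1 to 10 kb from a TSS and 20.5 at protein-coding promoters.

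The same rule found 1815 intergenic distal peaks (7.35%) in the list of pool D and 3638 (10.6%) in that of pool C. The order of the signal values held within each pool's own list. Intergenic distal peaks had a median of 4.55 in the pool D list and 4.94 in the pool C list. Intragenic distal peaks had 4.07 and 4.06 in these lists, and peaks 1 to 10 kb from a TSS had 4.08 and 4.23. Within a list, intergenic distal peaks thus stood above intragenic distal peaks by 0.48 in pool D, against 0.87 for pool C. They stood above peaks 1 to 10 kb from a TSS by 0.48 and 0.71. The differences had 1 sign in both pools, and no test over the 2 pools was made. Median widths were 517 and 543 bp for intergenic distal peaks in pool D and pool C, against 490.5 and 495 bp for intragenic distal peaks and 519 bp in each pool for peaks 1 to 10 kb from a TSS. Intergenic distal peaks were the wider of both distal classes in each pool, while their order against peaks 1 to 10 kb from a TSS differed between the pools. At equal signal in the replicated list they were narrower than intragenic distal peaks, in every band of signal value compared. Between signal values of 4 and 6 the medians were 555.5 and 612 bp, and between 6 and 10 they were 742 and 809 bp.

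**Figure D1:**
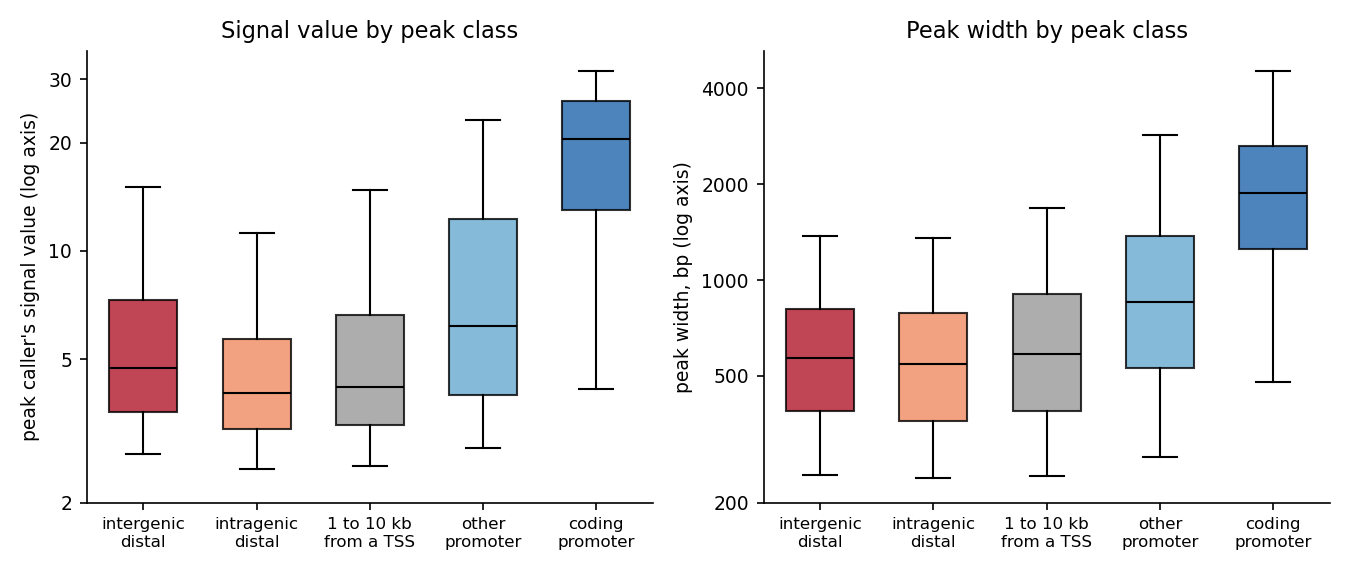
Signal value (left) and peak width in bp (right), both on log axes, for the 5 peak classes of the replicated list; boxes span the quartiles with the median as a line, and whiskers run from the 5th to the 95th percentile. Intergenic distal peaks, at the left of each plot, have medians of 4.73 and 569 bp, against 20.5 and 1872 bp at protein-coding promoters.

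The authors also gave each peak a q-value. A −log10 q of at least 5 was reached by 1784 intergenic distal peaks (71.8%), against 83.4% of all replicated peaks, 57.1% of intragenic distal peaks and 61.7% of peaks 1 to 10 kb from a TSS. A few intergenic distal peaks were as strong as promoters: 40 of them (1.61%) had a signal value at or above the protein-coding promoter median of 20.5, against 29.8% of all replicated peaks.

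The strongest intergenic distal peak, at chr12:8640103-8641768, lay 33.2 kb upstream of Pum2, which encodes a Pumilio RNA-binding protein. Its signal value of 33.4 was above those of 98.9% of all replicated peaks. It was 1633 bp wide by the pool D list and 1719 bp by the pool C list, and no RefSeq transcript started within 32.3 kb. The next was the peak with 4 tRNA genes near Cfap126, with a signal value of 30.2 and widths of 1734 and 2020 bp in pool D and pool C. The third, near Cggbp1, the gene of a protein that binds CGG repeats, had a signal value of 29.3 and covered the RefSeq start of the long noncoding RNA Gm33971.

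A peak with a signal value of 28.7 lay 13.3 kb upstream of Prrc2b and was only 698 bp wide (688 bp in pool D, 833 bp in pool C). One with 27.6 lay 28.7 kb upstream of Adgrb1, which encodes an adhesion receptor of neurons and glia, on the RefSeq start of the noncoding RNA Gm32168, and was 1864 bp wide (1787 bp in pool D, 1876 bp in pool C). One with 27.3 lay 14.3 kb upstream of Rgs9, a regulator of G protein signalling, and was again narrow at 872 bp (821 bp in pool D, 914 bp in pool C). The remaining 4 of the 10 strongest were nearest to Dct (27.0), Arhgap32 (26.5), Pla2g10 (26.1) and Smad7 (26.0). The peak near Dct covered a phenylalanine tRNA gene, and that near Pla2g10 the RefSeq start of A930007A09Rik. The peak near Arhgap32 lay 0.128 kb from a RefSeq start of that gene which is absent from the GENCODE release used. All 10 were found in each pool. The replicated list derives from both pools, so being found in each pool, here and below, is no separate support for a peak.

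RefSeq, a second annotation, placed genes under part of these peaks. A tRNA gene lay under 25 intergenic distal peaks (1.01%), against 0.514% of all replicated peaks. The share was 1.15% of peaks 1 to 10 kb from a TSS, 0.986% of promoter peaks of other gene types, 0.219% of protein-coding promoter peaks and 0.146% of intragenic distal peaks, so it was not highest in intergenic distal peaks. Peaks 1 to 10 kb from a TSS with a tRNA gene also had a high median signal value, 17.1, against 4.15 for the rest of that class. This comparison was added after the strongest peaks had been seen. The 25 peaks had a median signal value of 18.7 with a range of 9.02 to 30.2, against 4.67 for the other 2460. Their median width was 1851 bp, against 565 bp. All 25 were found in each pool, with median widths of 1734 bp in D and 1974 bp in C. They made up 10 of the 50 intergenic distal peaks with the highest signal value and 17 of the first 100.

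tRNA genes are read by RNA polymerase III from promoter elements inside the gene. In the 25 peaks no tRNA gene was centred within 150 bp of the summit. The centre of the nearest tRNA gene lay between 190 and 860.5 bp away, with a median of 291 bp, and in 24 of the 25 peaks it lay between 150 and 500 bp away. In the peak near Cfap126, for example, the leucine gene is centred 338 bp to the lower-coordinate side of the summit and the aspartate gene 190 bp to the other side, so the summit window printed above holds neither gene.

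The tRNA peaks were concentrated in a few places. Chromosome 13 held 12 of the 25, with 17 of the 38 tRNA genes. The cluster at chr13:21215404-21279759, nearest to Trim27 and Gpx5, held 9 intergenic distal peaks in 64.4 kb, 8 of them with a tRNA gene. All 9 were found in each pool, and their signal values ran from 5.61 to 25.6. The broadest intergenic distal peak was also at tRNA genes: the peak at chr3:96499244-96503493, nearest to Hfe2, the gene of the iron regulator hemojuvelin, was 4250 bp wide (4003 bp in pool D, 4281 bp in pool C) and covered several tRNA genes, among them genes for lysine, histidine and glycine.

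Seen from the tRNA genes, the mark was uneven. Of 403 RefSeq tRNA genes, 116 lay over 10 kb from every GENCODE TSS and outside genes, and 45 of these (38.8%) lay in a replicated peak, 38 of them in an intergenic distal peak. In pool D 36.2% of the 116 lay in a peak, and 40.5% did so in pool C. Of the other 287 tRNA genes 59.2% lay in a replicated peak. By amino acid, 5 of 6 glycine genes, 4 of 5 proline genes and 7 of 9 alanine genes among the 116 lay in a peak, against 0 of 36 cysteine genes. These cysteine genes had no peak in pool D or pool C either. They are counted in the 116 and lower its share of 38.8%, while all 45 genes in a peak were for other amino acids. The gap to the 59.2% of the other 287 tRNA genes therefore rests largely on the cysteine genes. It does not show that distal tRNA genes for other amino acids were marked less often. The number of cysteine genes among the 287 was not counted. tRNA genes of one family are near copies, and the handling of reads that align to several copies is not given in the sources used here.

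**Figure D2:**
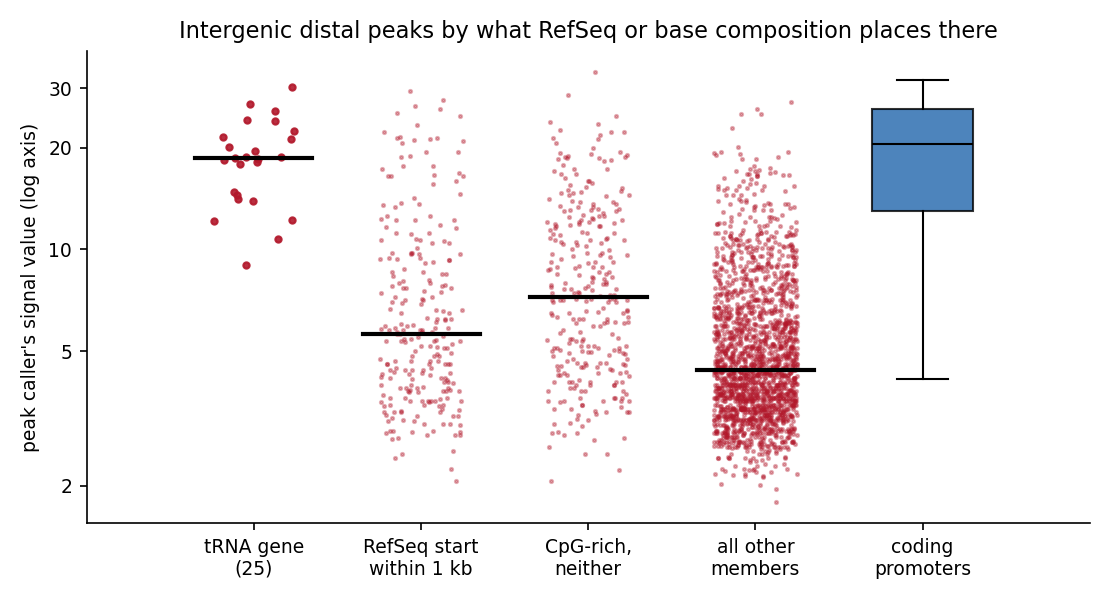
Signal value (log axis) of each intergenic distal peak, split into the 25 with a tRNA gene, the 246 others within 1 kb of a RefSeq transcript start, the 298 CpG-rich peaks with neither and the remaining 1916, beside a box of all protein-coding promoter peaks (quartiles, whiskers at the 5th and 95th percentile). Thick lines are medians: 18.7, 5.60, 7.25 and 4.41, against 20.5 at promoters.

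A RefSeq transcript started within 1 kb of 251 intergenic distal peaks (10.1%), against 63.1% of all replicated peaks, most of which are promoter peaks. The nearest of these transcripts was a long noncoding RNA for 208 of them, an mRNA for 37 and another transcript for 6. The 246 without a tRNA gene had a median signal value of 5.60, and 193 (78.5%) were found in pool D and 243 (98.8%) in pool C. Among them were 4 of the 5 broadest intergenic distal peaks. A peak of 3863 bp, nearest to Lipi on chromosome 16, covered a RefSeq start of Robo2, an axon guidance receptor. A peak of 3566 bp lay at a RefSeq start of Gpr161, which encodes a receptor of the cilium, one of 3522 bp on chromosome X at a RefSeq start of Dmd, the dystrophin gene, and one of 3471 bp at a RefSeq start of Slc35f3, where the nearest GENCODE coding start was that of Kcnk1. In pool D and pool C these 4 were 3348 and 3859 bp, 3452 and 3812 bp, 3457 and 3380 bp, and 3259 and 3677 bp wide.

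The other 2214 (89.1%) had neither a tRNA gene nor a RefSeq start within 1 kb, with a median signal value of 4.60 and a median width of 557 bp. Of them 1540 (69.6%) were found in pool D and 2126 (96.0%) in pool C. They still supplied 23 of the 50 strongest intergenic distal peaks, and 14 of these 23 were CpG-rich.

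Enhancers listed by RefSeq, most of them tested in mouse embryos by the VISTA project, overlapped 52 intergenic distal peaks (2.09%), against 0.669% of all replicated peaks, 1.61% of intragenic distal peaks and 0.206% of protein-coding promoter peaks. Of the 236 listed enhancers that lie over 10 kb from every TSS and outside genes, 43 (18.2%) held an intergenic distal peak. Among all 1019 listed enhancers the share in a replicated peak was much the same, with 189 (18.5%). The 52 peaks had a median signal value of 5.54 and a median width of 742.5 bp, and 38 (73.1%) were found in pool D and 51 (98.1%) in pool C. The strongest was at enhancer mm725, 42.6 kb from Wee1, the gene of a cell cycle kinase, with a signal value of 18.9. Enhancer mm1488 lay 16.1 kb from Qk, which encodes a regulator of myelin RNA splicing, and held a peak of 16.7. Enhancer mm260, 18.2 kb from the immediate early gene Fos, held a peak of 11.2 that was 1273 bp wide by the pool D list and 1496 bp by the pool C list.

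Whether a peak was found in a pool followed its signal value. The replicated list was itself derived from the alignments of both pools. That its strong peaks are found in each pool's list is therefore partly built in. Of the 2485 intergenic distal peaks, 1758 (70.7%) shared at least 1 bp with the pool D list, against 84.2% of all replicated peaks. In the pool C list 2394 (96.3%) were found, against 97.9% of all replicated peaks. Both lists held 1743 (70.1%), against 83.8%. Another 651 (26.2%) were found in pool C and not in pool D, against 14.1% of all replicated peaks, 15 in pool D and not in pool C, and 76 in neither. Peaks in both lists had a median signal value of 5.93 and a median width of 672 bp, those in pool C and not in pool D 3.47 and 375 bp, and those in neither 2.80 and 242 bp. The pool C list is the longer one, with 34193 peaks against 24690 in pool D. Among the 1743 peaks found in each pool the median width was 537 bp in pool D and that in pool C was 772 bp, and 94.3% were wider in pool C. The depth of the libraries is not recorded in the peak lists, so its share in this difference was not tested.

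Intergenic distal peaks were split by signal value into 10 groups of about equal size. In the lowest group 20.5% were found in pool D and 76.3% in pool C. In the sixth these shares were 88.3% and 100%, and from the eighth upward every peak was found in each pool. At equal signal the peak classes had similar shares. Between signal values of 4 and 6, 81.3% of intergenic distal peaks were found in pool D, against 81.1% of intragenic distal peaks and 80.4% of peaks 1 to 10 kb from a TSS.

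**Figure D3:**
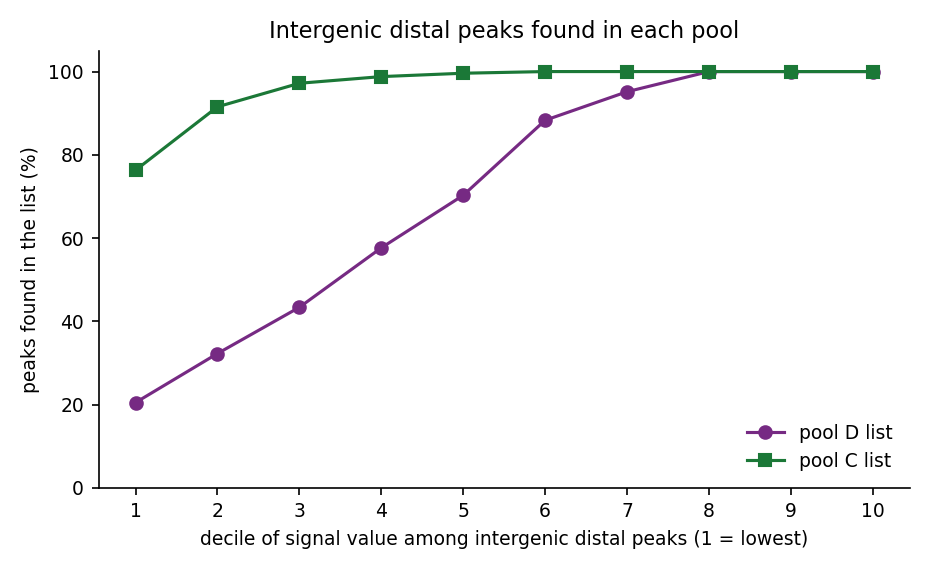
Share of intergenic distal peaks (%) that share at least 1 bp with the list of pool D or of pool C, by decile of the signal value in the replicated list. The lowest decile has 20.5% for pool D and 76.3% for pool C, and each reaches 100% by the eighth.

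Base composition at the summits lay between that of neighbouring sequence and that of promoters. The 300 bp windows of intergenic distal peaks had a median GC content of 50%, 9 CpG dinucleotides and a ratio of observed to expected CpG of 0.487. Windows of the same length 3 kb to either side had 44.3%, 2 and 0.173. Windows of protein-coding promoter peaks had 64.7%, 23 and 0.746, and those of intragenic distal peaks 48.7%, 7 and 0.438. The ratio was 0.502 in the pool D list and 0.462 in the pool C list for intergenic distal peaks, against 0.448 and 0.399 for intragenic distal peaks.

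A window was called CpG-rich with a ratio of at least 0.6 and a GC content of at least 50%. This held for 367 intergenic distal peaks (14.8%), against 49.2% of all replicated peaks and 0.685% of the windows 3 kb away. The 367 had a median signal value of 7.62, against 4.49 for the others, and 84.2% of them were found in pool D, against 68.4%. The peak with 39 CpG near Dmbx1, a homeobox gene of the developing brain, had a signal value of 22.5 and was 1107 bp wide by the pool D list and 1121 bp by the pool C list. The one near Fgfr3, a fibroblast growth factor receptor of astrocytes and progenitors, had 8.69, with widths of 778 and 978 bp.

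Signal values climbed with CpG count in each class shown. Intergenic distal peaks with 0 to 4 CpG had a median signal value of 3.74, those with 10 to 14 had 5.21 and those with 20 or more had 11.1. Protein-coding promoter peaks had 4.88, 16.1 and 22.9 in these bins, and were higher in every bin. Across the 2485 peaks, which share libraries and so are not independent, the Spearman correlation of the signal value was 0.368 with CpG count, 0.635 with width and -0.105 with the distance to the nearest TSS.

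**Figure D4:**
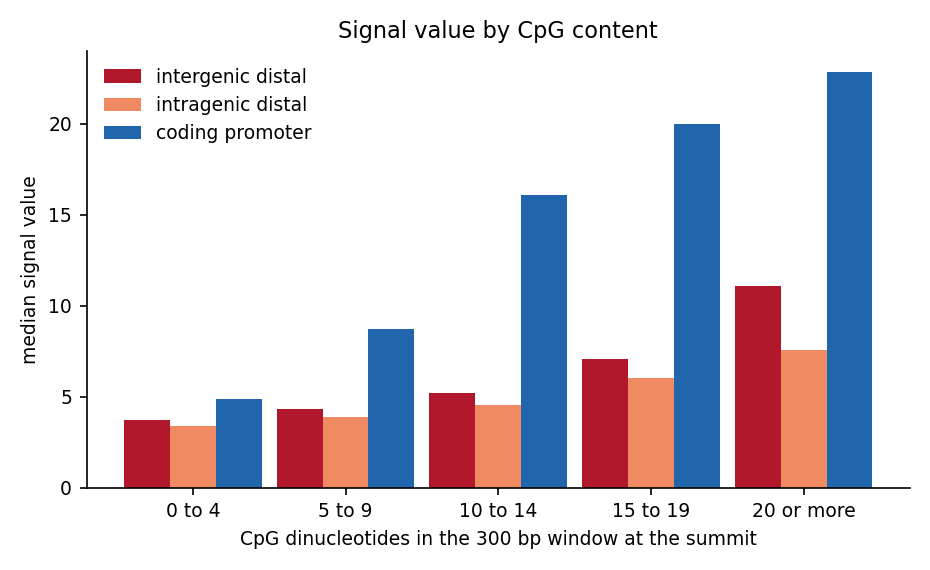
Median signal value of intergenic distal, intragenic distal and protein-coding promoter peaks by the number of CpG dinucleotides in the 300 bp window at the summit. Intergenic distal peaks go from 3.74 with 0 to 4 CpG to 11.1 with 20 or more, below protein-coding promoters in each bin.

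Motifs of 9 kinds were searched on both strands of the 300 bp summit windows. A match is a stretch of letters and not a bound site. AP-1 letters (TGANTCA), the kind of element that Fos and Jun dimers bind, were in 187 intergenic distal windows (7.53%), against 5.32% of all replicated peaks and 8.90% of windows 3 kb away. The cAMP response element (TGACGTCA), bound by CREB, was in 0.724%, against 0.632% of all peaks and 0.141% of windows 3 kb away. The E-box of the Neurod family (CAGATG) was in 23.9%, against 15.8% and 22.3%. The GC box (GGGCGG) was in 18.6%, against 36.3% and 4.33%. It was in 44.7% of CpG-rich intergenic distal windows and 14.1% of the others. In intragenic distal windows the cAMP response element, the E-box and the GC box had shares of 0.487%, 23.2% and 13.1%. In peaks 1 to 10 kb from a TSS these shares were 0.513%, 20.3% and 17.5%.

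The longer motifs were rare. The MEF2 motif was in 0.805% of intergenic distal windows, against 0.499% of all replicated peaks. Its share was higher in intragenic distal windows, at 1.36%, and 0.697% in peaks 1 to 10 kb from a TSS. The RFX motif was in 0.362% of intergenic distal windows, against 0.192% of all replicated peaks. The nuclear factor I palindrome, an element of a family active in glia and developing neurons, was in 0.644%, against 0.34% of all replicated peaks and 0.121% of windows 3 kb away. Its strongest example is the Sox17 window printed above, with a signal value of 20.7 and widths of 886 and 1084 bp in pool D and pool C. The RE1 core, which the repressor REST binds, was in 0 of 2485 windows, against 0.0296% of all replicated peaks. The CTCF core motif was in 41 windows (1.65%), against 0.861% of all replicated peaks and 0.302% of windows 3 kb away. In intragenic distal windows the RFX, nuclear factor I and CTCF motifs had shares of 0.243%, 0.584% and 1.07%. In peaks 1 to 10 kb from a TSS these shares were 0.185%, 0.431% and 1.46%.

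CTCF is a zinc finger protein of insulators and loop anchors, and nucleosomes are arrayed in register on either side of its sites. With windows of 250 bp on either side of the summit the share of intergenic distal peaks with its motif was 7.97%, in place of 1.65%, and positions were therefore measured out to 1 kb. Matches were rare at the summit itself. Only 2 matches were centred under 50 bp from a summit (0.0805 per 100 peaks), whereas 109 lay 150 to 200 bp away (4.39 per 100 peaks). From 500 to 1000 bp the mean was 0.121 per 100 peaks in each 50 bp bin. The same bin was the highest in the other classes, with 1.80 matches per 100 intragenic distal peaks, 2.56 per 100 peaks 1 to 10 kb from a TSS and 0.612 per 100 protein-coding promoter peaks. Fewer matches at the summit were not particular to CTCF. In intergenic distal peaks the GC box had 6.40 per 100 peaks under 50 bp and 10.1 at 150 to 200 bp. The cAMP response element had 0.0805 under 50 bp and 0.443 at 100 to 150 bp. The nuclear factor I palindrome was highest under 50 bp, with 0.322.

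**Figure D5:**
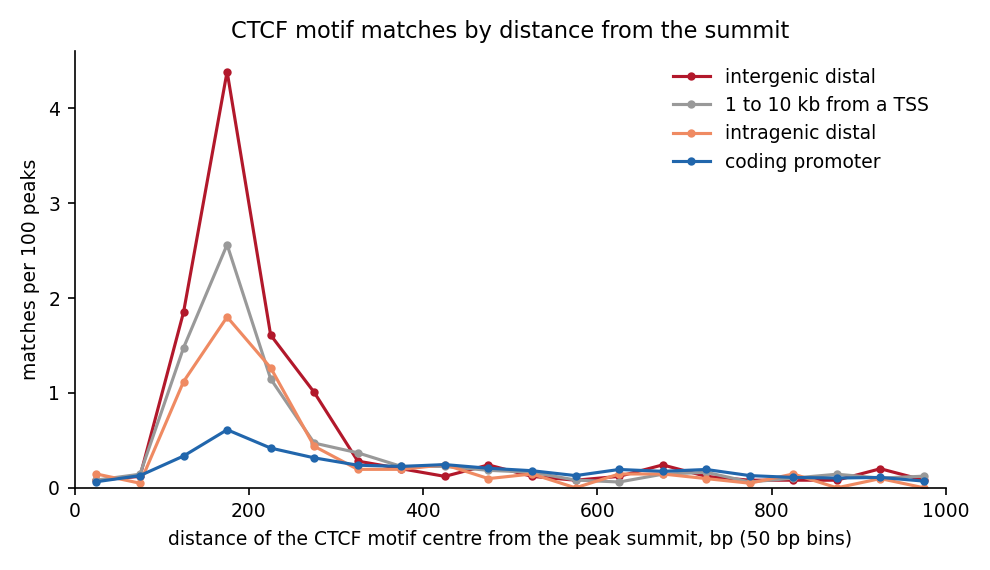
Matches to the CTCF core motif per 100 peaks, in 50 bp bins of the distance between motif centre and summit, for 4 peak classes. Intergenic distal peaks reach 4.39 matches per 100 peaks at 150 to 200 bp and 0.0805 under 50 bp.

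Counted as peaks, 220 intergenic distal peaks (8.85%) had a CTCF motif 100 to 300 bp from the summit, a range set after these positions were seen, against 3.44% of all replicated peaks. The share was 4.48% of intragenic distal peaks, 5.56% of peaks 1 to 10 kb from a TSS, 1.66% of protein-coding promoter peaks and 0.362% around points 3 kb from the intergenic distal summits. In the pool lists the share was 9.31% in pool D and 7.34% in pool C for intergenic distal peaks, 4.70% and 3.55% for intragenic distal peaks, and 4.82% and 4.69% for peaks 1 to 10 kb from a TSS. The intergenic distal peaks thus had the higher share in each pool. The motif was inside the called peak in only 93 of the 220 (42.3%). It lay on the lower-coordinate side of the summit in 119 and on the other side in 101.

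The 220 peaks were narrower than the other 2265 and not weaker. Their median width was 447.5 bp, against 577 bp, and their median signal value 5.50, against 4.62. In pool D 174 (79.1%) were found, against 69.9% of the others, and in pool C 216 (98.2%), against 96.2%. They were narrower at equal signal too: between signal values of 6 and 10 the median width was 553 bp with the motif and 755 bp without it, and above 10 it was 781 bp with the motif and 1112.5 bp without it. The Nat1 window printed above is of this kind, with a signal value of 17.3 and a peak of only 374 bp (350 bp in pool D, 391 bp in pool C). The GC content was the same, with a median of 50% with and without the motif, and no tRNA gene lay under any of the 220. The strongest, near Foxk1 on chromosome 5, had a signal value of 24.8 and widths of 1673 and 1979 bp in pool D and pool C.

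Most intergenic distal peaks lay well beyond the limit of 10 kb. The median distance was 26.0 kb to any TSS and 63.0 kb to a coding TSS. Between 10 and 20 kb there were 909, between 20 and 50 kb 1018, between 50 and 100 kb 391, and beyond 100 kb 167. The median signal value of these bins was 5.03, 4.67, 4.58 and 4.12, and the share found in pool D 72.4%, 69.9%, 70.6% and 67.1%. Upstream of their nearest coding gene lay 1445 (58.1%), and downstream 1040. The rule leaves out gene bodies, which lie downstream of start sites, so the 2 sides were not sampled evenly. The upstream share of all sequence that meets the rule was not counted, nor was the amount of such sequence in each distance bin. Just inside the limit of 10 kb were the peaks near Scg2 (10.018 kb, signal value 8.96), Thap1 (10.021 kb, 8.46) and Aqp11 (10.031 kb, 3.47). Just outside it were those near Tbx21 (9.999 kb, 9.98), Npc2 (9.988 kb, 3.04) and Tor1b (9.985 kb, 13.7).

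The peak farthest from any TSS was at chr2:56454610-56455030, 330.781 kb from the nearest. Its nearest coding gene was Nr4a2, an orphan nuclear receptor of dopamine neurons, 658.25 kb away. Its signal value was 4.79, and its width was 314 bp in pool D but 473 bp in pool C. The second farthest, 390.844 kb from Speer2, was stronger at 12.04 and measured 992 and 1040 bp in these pools. The others of the 5 were nearest to Csmd1 (4.49), Ndufa4 (5.44) and Unc5d (4.15), and the last of these was not found in pool D.

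The sequence open to such a peak, over 10 kb from every TSS and outside genes, came to 1034.74 Mb, 38.0% of the chromosomes, and held 2.40 peaks per Mb. The autosomes together held 2431 peaks, or 2.72 per Mb, with the lowest density on chromosome 3 (2.02) and the highest on chromosome 11 (3.88). Chromosome X, present once in these males, held 54 peaks, or 0.632 per Mb, and chromosome Y 0 peaks in 56.3 Mb. Why the sex chromosomes held fewer was not tested, and the handling of reads that align to several places is not given.

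Peaks whose summits lay within 25 kb of the next formed 289 clusters with 655 peaks (26.4%), and 236 of the clusters were pairs. The same share was not counted for other peak classes. Clustered peaks had a median signal value of 4.84, against 4.67 for single ones, and 71.6% of them were found in pool D, against 70.4%. After the tRNA cluster on chromosome 13 the cluster with most peaks was at chr13:84748533-84761917, with 7 peaks in 13.4 kb. Its nearest coding gene, Ccnh, which encodes a cyclin of the general transcription machinery, lay over 428 kb away, its signal values ran from 3.42 to 6.01, and 5 of its peaks were found in pool D and 7 in pool C. Clusters of 5 peaks lay nearest to Tbc1d1, to Dlx2, a homeobox gene of interneurons, and to Pax2, a developmental transcription factor.

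Each peak was also assigned to the coding gene with the nearest TSS, which gives a position and not a target. The 2485 peaks were nearest to 1711 of 21911 coding genes (7.81%), and 31 genes were nearest to 5 or more. Ccnh, Tmem182 and Vrk1 had 11 peaks each, Snrpn 10 and Kif2a 8. Map3k7, Pax2, Pmfbp1 and Ptbp2 had 7 each and Adgrl2 had 6. Of the 11 peaks nearest to each of Ccnh, Tmem182 and Vrk1, 7, 7 and 8 were found in pool D and 10, 10 and 11 in pool C. Snrpn, an imprinted gene of the Prader-Willi region, had peaks with signal values from 3.47 to 16.5, 6 of them found in pool D and 10 in pool C. Pax2 had its 7 in only 0.051 Mb of open sequence.

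Peaks were then counted per Mb of such sequence nearest to the genes of 11 lists, since genes with large deserts have room for more peaks. Over all coding genes the density was 1.75 per Mb in the pool D list and 3.52 in the pool C list. Near immediate early genes, which neurons switch on with activity, 12 peaks lay in 2.04 Mb, or 5.90 per Mb, and 8 of the 20 genes were nearest to at least 1 peak, against 7.81% of all coding genes. The density was 5.90 per Mb in pool D and 7.37 in pool C. Fos had 2 of these peaks at 12.4 and 18.2 kb, and the stronger had a signal value of 23.8. Klf4 had 3, the strongest with 10.8. All of these were found in each pool. Most other lists also had a larger share of genes nearest to a peak than the 7.81% of all coding genes. Among them were 16 of 30 forebrain transcription factors, 9 of 20 synaptic adhesion and guidance genes and 7 of 20 excitatory neuron genes. Microglia and housekeeping genes, with 1 of 20 each, and liver and muscle genes, with 0 of 20, were below it.

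Near astrocyte genes the density was 5.92 per Mb in the replicated list, 5.46 in pool D and 7.29 in pool C, from 13 peaks at 6 of 20 genes. Sox9, a transcription factor of astrocytes, had 6 of them, each found in D and in C, at 29.3 to 360.9 kb, and S1pr1, a sphingosine phosphate receptor, had 2. Forebrain transcription factors reached 16 of 30 genes with 30 peaks, but in 10.6 Mb, so that their density of 2.82 per Mb (1.88 in pool D and 4.61 in pool C) was close to the 2.40 per Mb of all coding genes. Zeb2 had 5 of these peaks and Nr2f2 had 4.

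Excitatory neuron genes had 10 peaks (3.06 per Mb), and their density was 1.84 per Mb in pool D but 3.06 in pool C, below the 3.52 of all coding genes there. Of the 10 peaks, 3 lay near Neurod2 with none found in pool D, and 2 near Neurod6 with each found in both pools. Interneuron genes had 11 (2.75 per Mb), with 2.25 per Mb in pool D but 4 per Mb in pool C. Of these 11 peaks, 6 lay near Dlx2, and without Dlx2 the density was 1.29 per Mb. Another 2 lay near Erbb4, a neuregulin receptor. Oligodendrocyte lineage genes had 3 peaks (3.49 per Mb), 2 near Qk and 1 near Pdgfra. All 5 peaks near microglia genes (3.96 per Mb) lay near 1 gene, Sall1, and only 2 were found in pool D. Endothelial and mural genes had 5 peaks in 0.793 Mb, or 6.31 per Mb, the highest density of the 11 lists. Among them were 1 near Cldn5 and 1 near Erg, neither found in pool D. The density of the list was 2.52 per Mb in pool D and 6.31 in pool C. Synaptic adhesion and guidance genes, which lie in large deserts, had 14 peaks in 20.7 Mb, or 0.676 per Mb (0.579 in pool D and 1.16 in pool C). Epha4, an ephrin receptor, had 4 of them and Robo1, an axon guidance receptor, had 3. Housekeeping genes had 1 peak, near Actb, in 0.196 Mb. Their density of 5.10 per Mb, the same in each pool, rests on that peak. It was not far below the densities near immediate early and astrocyte genes. Liver and muscle genes had 0 peaks in 0.826 Mb. Most of these lists rest on a handful of peaks, and none of the densities was tested.

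The tissue label was checked at promoters. Of 14 marker genes of hippocampal fields, neurons, astrocytes and oligodendrocytes, 14 carried a peak within 1 kb of a start site in the replicated list, 13 did so in pool D, where Mog had none, and 14 in pool C. Of 4 marker genes of liver, heart, epidermis and T cells, 0 had one in these lists. The share of all coding genes with such a peak was not counted. The replicated list holds 15515 protein-coding promoter peaks, so many genes that are not markers have one too. The tissue holds many cell types, so a weak peak in all cells and a strong peak in few cells cannot be told apart.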

How the data were processed

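H3K4me3 ChIP-seq peaks of 2 hippocampal pools, each with 2 technical libraries, were analysed from 4 peak lists on mm10. Per the labels, each pool has its own list, another was called on both together, with a control alignment, and the last holds the peaks that replicate. The sources used here name no peak caller and no read depth. The deposited lists give start, end and summit offset in bp (other values, not normalized by the authors), a signal value and −log10 q. The signal value and −log10 q are the authors' own, on a scale that their peak caller set, and they were used only to describe and rank peaks within a list, and classes were compared by signal value within each list. Columns of other samples numbered 0.

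Distances ran from the peak's edge to the nearest GENCODE M21 TSS. Gene bodies were tested at the summit. The nearest coding gene was taken from the summit. tRNA genes, other transcript starts and enhancers came from RefSeq for GRCm38.p6, whose chromosomes all deposited peaks fit. Sequence was read 150 bp on either side of the summit. Overlap meant at least 1 bp. The width of a replicated peak in a pool was the summed width of all peaks of that pool's list that overlapped it. Open sequence was counted on a grid of 1000 bp. Python 3.11.15, pandas 2.3.3, NumPy 2.4.6 and matplotlib 3.10.9 were used, and the class, overlap and motif steps were tested on simulated data.

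The named peaks were the 10 strongest, 5 broadest and 5 farthest from a TSS, the 5 clusters with most peaks, and 3 on either side of the limit of 10 kb. The named genes were the 10 nearest to most peaks and the first 2 of each list. Sequences were the 3 strongest windows, the 2 with most CpG, and the strongest printable one with each of the RE1, CTCF and NFI motifs; no window held RE1, and the tRNA genes, the enhancers and the strongest CTCF peak were added later. The sequence of the fourth tRNA gene under the peak near Cfap126 is not reported here. The peaks, gene lists and motifs were chosen with earlier results of these data known. Regions of 1 library are not replicates, so no p-value was computed over them. The pools are separate pools of tissue, but the labels name 1 donor entry for both, so the spread between them may be partly technical. Alternatives were other lists, distances, windows, overlaps, gaps and a stricter q.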

Additional observations from a re-analysis of the deposited data

How the results depend on the processing

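The share of the list that is intergenic distal, 9.18%, was 11.8% over 5 kb from every TSS, 5.82% over 20 kb, and 17.0% where only protein-coding genes counted. The median width of 569 bp was 493 bp in the list called on both pools together, 658 bp with −log10 q of at least 5, and 517 to 543 bp in the list of either pool alone. With reciprocal overlap of 50% the share found in pool D was 65.9% and that in pool C 91.6%. With −log10 q of at least 5 they were 87.8% and 99.8%, the median GC content was 50.7%, the GC box share 22.0% and the share with a CTCF motif 100 to 300 bp from the summit 10.8%. That CTCF share was 7.34% to 9.31% in the list of either pool alone. Windows of 250 bp on either side of the summit gave a GC content of 49.4% and motif shares of 7.97% for CTCF, 13.0% for AP-1, 1.17% for CRE, 35.2% for the E-box, 1.33% for MEF2 and 28.7% for the GC box; a longer window has more room for a match. Clusters held 19.1% of the peaks with a gap of 0.5 times 25 kb and 35.3% with one of 50 kb. The alternatives for the CTCF distance, for leaving out tRNA genes and RefSeq starts, and for forebrain transcription factors were chosen after seeing the data. No paired analysis was possible because no result comes from a test between groups; peak classes were compared within the list of each pool. Read depth is unknown, so a peak missing from pool D may be below detection there.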
